A study of Mus musculus with 9 samples.

Results

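The 9 genes described here encode the LIM-only proteins (Lmo1, Lmo2, Lmo3 and Lmo4), the LIM-domain-binding cofactors (Ldb1 and Ldb2) and the early B-cell factors (Ebf1, Ebf2 and Ebf3). They were chosen by name, as the probe sets of the array whose only gene symbol was one of these, which gave 9 of 18194 named genes and 19 probe sets. Messenger RNA was measured in the olfactory bulbs of CD1 mice, an outbred stock with no mutation or treatment named in the labels, at embryonic days E11, E12, E13, E14, E15, E16, E17 and E18 and on the day of birth (P0). Each age was 1 Affymetrix array made from the bulbs of 1 animal after 2 rounds of amplification. No age had a replicate. The error of a trend is therefore the scatter of the arrays about the fitted line, and a difference between single arrays had no test. The whole bulb was dissected, so that fewer cells of a type and less RNA per cell cannot be told apart.

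LIM-only proteins consist of little more than a pair of LIM zinc fingers and bind no DNA themselves. They work as bridges and competitors: Ldb proteins dimerise and join LIM homeobox factors, or LIM-only proteins with basic helix-loop-helix and GATA factors, into one complex at enhancers, and a LIM-only protein can displace a LIM homeobox factor from Ldb. Ebf proteins are helix-loop-helix DNA-binding factors, first found in olfactory neurons and B cells, that act in early neuronal differentiation and migration.

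The 4 LIM-only genes moved in different directions over the course, and Lmo3 and Ebf2 had the largest changes. The 3 Ebf genes read lower at birth than at E11, as did Lmo1, Ldb1 and Ldb2. For Ebf3 (-0.29) and Ldb2 (-0.41) the difference was within the spread of a difference between 2 arrays. That spread was taken as 0.30 and 0.74 from the scatter around a curved fit. At an adjusted p of 0.05 (limma, slope on age in days, adjusted over all 10864 genes tested), 2 of the 9 genes rose (Lmo3 and Lmo4), 4 fell (Lmo1, Ldb1, Ebf1 and Ebf2) and 3 did not pass (Lmo2, Ldb2 and Ebf3). Among all genes tested 25.2% rose and 21.9% fell, 47.2% in all. With each array centred on its median, 2389 of 10870 genes rose and 2987 fell, against 2743 and 2382 of 10864 without centring, and the calls of the 9 members were kept. The share of members that rose (22.2%) was close to that of all genes, and the share that fell was 44.4%. The median slope of the members was -0.053 log2 units per day, against 0.0020 over all genes tested. Of the 19 probe sets, 15 reached log2 5 on at least 2 arrays and were tested, and every member had at least 1 of them. Of these 15, 2 rose (20.7% of all probe sets tested did), 9 fell (23.7% of all did) and 4 did not pass. Probe sets of a gene are repeat readings of it, and of the 9 that fell 4 were of Ebf1 and 2 of Ebf2. The dimmer of these 2 reached 5 at E11 and E12 alone, so that the filter favoured its fall in advance. Values are GCRMA levels on the log2 scale, on which a difference of 1 unit is 2-fold, and slopes carry a moderated standard error from 9 arrays.

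**Figure D1:**
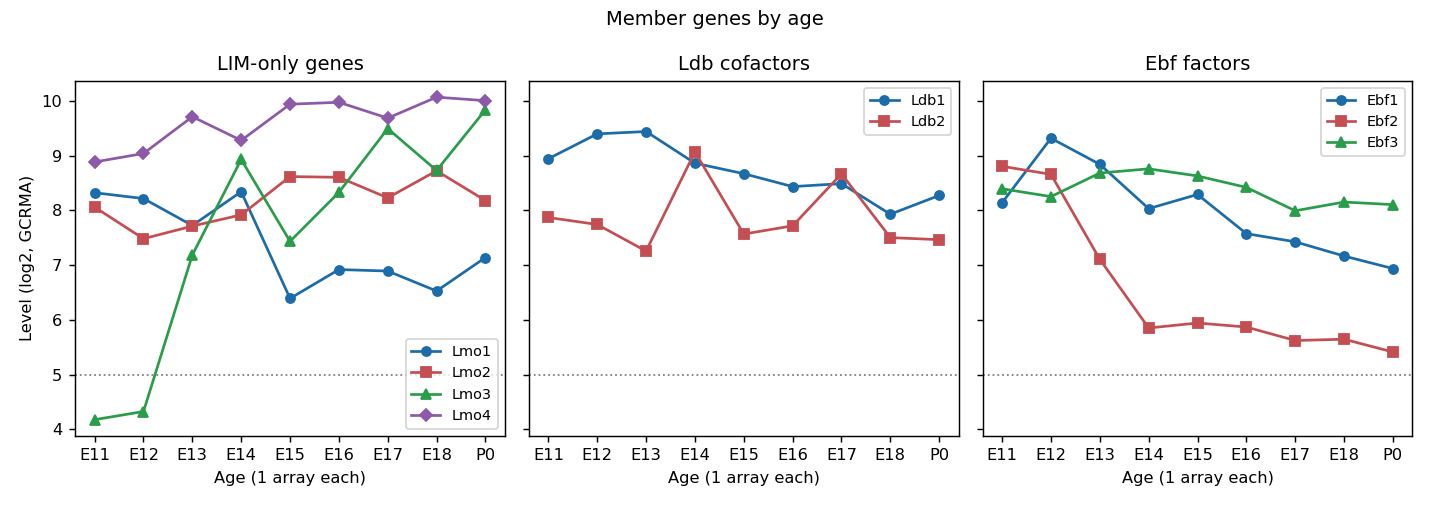
Levels of the 9 member genes (log2, y axis) at each age (x axis, 1 array per point), 1 probe set per gene, in panels for the LIM-only, Ldb and Ebf genes; the dotted line is the filter level of 5. Lmo3 climbs to 9.84 at P0 and Ebf2 ends at 5.41, while Lmo3 and Ldb2 stand up at E14 and E17.

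**Figure D2:**
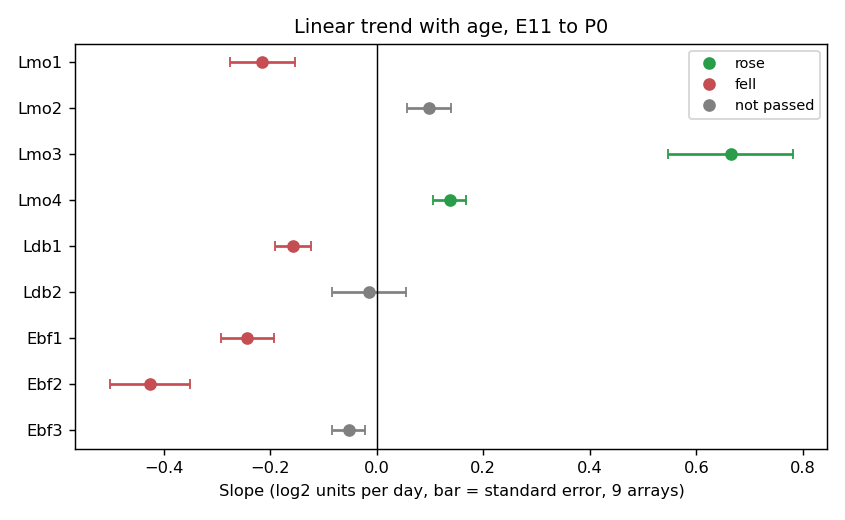
Slope with age (log2 units per day, x axis) of each member gene (y axis), with bars of 1 standard error over 9 arrays. Green points rose, red points fell and grey points did not pass; Lmo3 lies farthest to the right and Ebf2 farthest to the left.

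Lmo3, a LIM-only gene known from neurons of the developing forebrain, had the largest rise. It read 4.18 at E11, 4.33 at E12, 7.19 at E13, 8.93 at E14, 7.43 at E15, 8.33 at E16, 9.50 at E17, 8.73 at E18 and 9.84 at P0. The E11 and E12 arrays lay under the filter level, every later array was above 7, and the largest step between consecutive ages was the 2.86 log2 units between E12 and E13. In order of level the ages ran P0, E17, E14, E18, E16, E15, E13, E12 and E11. Only the gap between E13 and E12 in that order exceeded the spread of a difference between 2 arrays, taken as 1.04 log2 units from the scatter around a curved fit. The slope was 0.66 ± 0.12 log2 units per day (adjusted p = 0.00126), higher than that of 98.7% of all genes tested, and the level at P0 was at least 28.6-fold that at E11. From E13 to P0 alone the slope was 0.34 ± 0.10 (adjusted p = 0.0399).

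Lmo4, the most broadly expressed LIM-only gene of the brain, rose by less. Its levels were 8.88 at E11, 9.04 at E12, 9.71 at E13, 9.28 at E14, 9.94 at E15, 9.98 at E16, 9.69 at E17, 10.07 at E18 and 10.01 at P0. The E11 and E12 arrays were the lowest and E18 and P0 the highest. The slope was 0.14 ± 0.031 log2 units per day (adjusted p = 0.00506), with a level 2.17-fold higher at P0 than at E11. The call ended from E13 to P0 alone, where the slope was 0.079 ± 0.040 (adjusted p = 0.184).

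Lmo1, known from developing hindbrain and forebrain and as an oncogene of T cell leukaemia and neuroblastoma, fell. It read 8.32 at E11, 8.22 at E12, 7.72 at E13 and 8.34 at E14, and then 6.39 at E15, 6.92 at E16, 6.89 at E17, 6.53 at E18 and 7.14 at P0. The first 4 ages lay above the last 5 without overlap, and the largest step was the fall by 1.95 log2 units between E14 and E15. No gap between neighbours in the order of levels exceeded the spread of a difference (0.62), including that between E13 and P0. The slope was -0.21 ± 0.061 log2 units per day (adjusted p = 0.0151), and the level at P0 was 2.27-fold under that at E11. Leaving out E11 ended the call (adjusted p = 0.0575), as did the fit of the arrays E13 to P0 (adjusted p = 0.202). It also ended when values under 5 were raised to 5 (adjusted p = 0.0563) and in an exact test of rank correlation (adjusted p = 0.140).

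Lmo2, which in blood and endothelial cells bridges Tal1 and GATA factors to Ldb1, did not pass. Its levels were 8.06 at E11, 7.48 at E12, 7.71 at E13, 7.92 at E14, 8.62 at E15, 8.61 at E16, 8.23 at E17, 8.72 at E18 and 8.18 at P0. The slope was 0.099 ± 0.041 (adjusted p = 0.0727), and it passed without the P0 array (0.14 ± 0.046, adjusted p = 0.0340). All ages from E15 on read above all ages before it, the nearest pair being P0 with 8.18 and E11 with 8.06. On the same arrays, 3 of 10 tested endothelial markers rose, 0 fell and 7 did not pass, and the median of the list lay between 6.98 at E13 and 7.94 at E16. The 3 that rose were Cldn5 (0.35 ± 0.048), Ramp2 (0.25 ± 0.051) and Flt1 (0.23 ± 0.060). Kdr, among the 7 that did not pass, read between 7.80 and 9.20. Pecam1, Cdh5, Tie1 and Emcn, also of this list, did not pass the filter. The median of 6 red cell genes was 2.96 at P0, against 12.24 at E11. Of these 6, 5 fell, among them the embryonic globins Hbb-y, Hba-x and Hbb-bh1, while Alas2 did not pass (adjusted p = 0.306). Ermap was at 5 or more at E11 and E12 alone, and Hba-x and Hbb-bh1 from E11 to E14 alone. The filter therefore favoured a fall for Ermap, Hba-x and Hbb-bh1 in advance. Alas2 read between 8.24 and 8.54 from E14 to E18, with 9.46 at E11 and 6.94 at P0. The median of 9 genes of microglia and macrophages was 7.45 at P0, against 5.15 at E11. The part of these cell types in the Lmo2 levels was not tested.

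Levels of different probe sets cannot be set against each other, but the ratio of a pair of paralogs within an array shows whether they changed unequally. The log2 ratio of Lmo3 over Lmo1 had a slope of 0.88 ± 0.14 per day (95% interval 0.55 to 1.21, least squares, 9 arrays), the largest of the 10 pairs of paralogs. The interval also lay above 0 for Lmo3 over Lmo2 (0.57 ± 0.15, interval 0.20 to 0.93), Lmo3 over Lmo4 (0.53 ± 0.14, interval 0.19 to 0.86), Lmo4 over Lmo1 (0.35 ± 0.097, interval 0.12 to 0.58) and Lmo2 over Lmo1 (0.31 ± 0.11, interval 0.059 to 0.57). For Lmo4 over Lmo2 it included 0 (0.038 ± 0.044, interval -0.065 to 0.14). From E13 to P0 alone, the intervals of all these ratios but Lmo3 over Lmo1 included 0. That of Lmo2 over Lmo1 also included 0 without the E11 (0.34 ± 0.14), E12 (0.27 ± 0.12) or E18 array (0.28 ± 0.12), and without both the E14 and E17 arrays (0.30 ± 0.12).

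**Figure D3:**
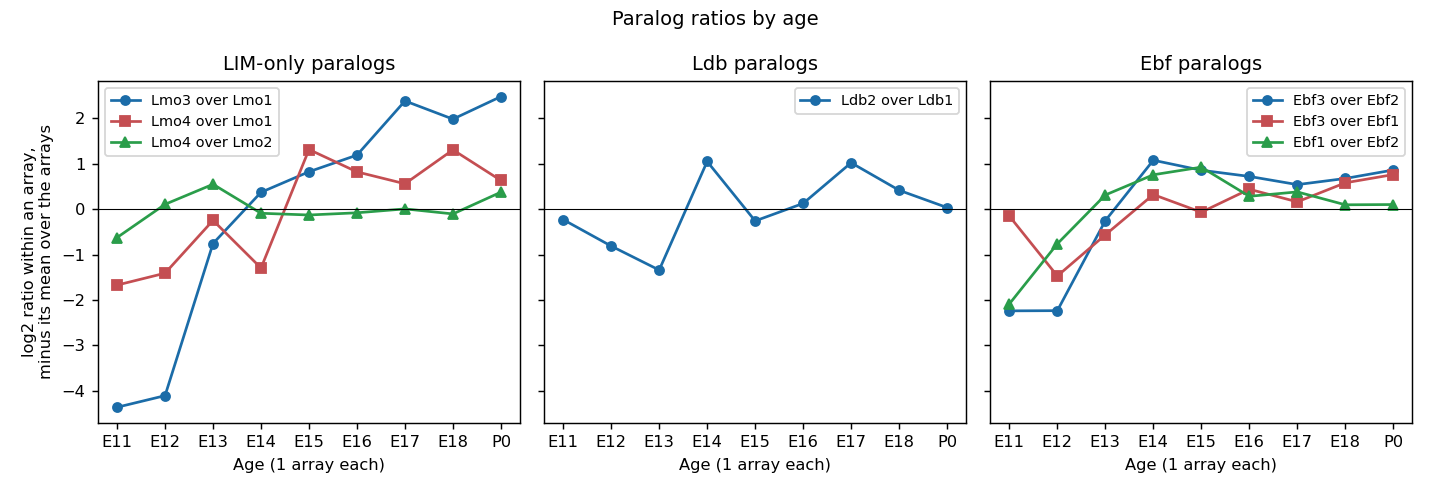
Log2 ratio of pairs of paralogs within each array, minus its mean over the 9 arrays (y axis), by age (x axis, 1 array per point), for LIM-only, Ldb and Ebf genes. Lmo3 over Lmo1 rises through the course, Ldb2 over Ldb1 peaks at E14 and E17, and Ebf3 over Ebf2 rises between E12 and E14 and is level afterwards.

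Ldb1, the broadly expressed cofactor that holds LIM homeobox and LIM-only complexes together, fell. It read 8.94 at E11, 9.40 at E12, 9.44 at E13, 8.86 at E14, 8.67 at E15, 8.44 at E16, 8.49 at E17, 7.93 at E18 and 8.27 at P0. The ages from E11 to E14 were the 4 highest, and E18 and P0 the lowest. The slope was -0.16 ± 0.034 log2 units per day (adjusted p = 0.00363), and the level at P0 was 1.59-fold under that at E11. The call was kept in all 22 alternatives, with adjusted p between 0.00165 and 0.0143.

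Ldb2, its paralog, had no trend with age and stood out on single arrays. The brightest probe set read 7.87 at E11, 7.74 at E12, 7.26 at E13, 9.07 at E14, 7.57 at E15, 7.72 at E16, 8.67 at E17, 7.50 at E18 and 7.47 at P0. E14 and E17 were the 2 highest ages, and the gap between E17 and E11, next in order, was beyond the spread of a difference (0.74). A second probe set read 8.24 at E14 and 7.09 at E17, its 2 highest values, and between 6.03 and 6.88 on the other arrays. The third reached 5.69 at E14 and was under 5 on all other arrays. The slope was -0.014 ± 0.070 (adjusted p = 0.883), and that of the second probe set 0.025 ± 0.075 (adjusted p = 0.810). The ratio of Ldb2 over Ldb1 had a slope of 0.14 ± 0.094 per day with an interval from -0.079 to 0.36.

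High readings at E14 were shared by 3 members. The E14 level exceeded the mean of E13 and E15 by 1.66 log2 units for Ldb2, 1.62 for Lmo3 and 1.28 for Lmo1. For the other 6 the difference was 0.10 (Ebf3), -0.19 (Ldb1), -0.25 (Lmo2), -0.53 (Ebf1), -0.55 (Lmo4) and -0.67 (Ebf2). A difference of over 1 unit was seen for 0.828% of all genes tested. At E17 the level exceeded the mean of E16 and E18 by 1.06 for Ldb2 and 0.97 for Lmo3, and by over 1 unit for 0.506% of all genes. Over 8 factors of neocortical neurons the median difference was 0.75 at E14 and 0.36 at E17, and over 9 genes of mitral and tufted cells it was -0.36 at E14 and -0.09 at E17. Outside the neocortical list, Emx1 of dorsal forebrain progenitors read 7.43 at E14, against 8.57 at E13 and 7.87 at E15. Lhx2 of cortical progenitors read 10.37 at E14, against 11.50 at E13 and 10.63 at E15. Tbr1, listed with mitral and tufted cells, read 11.88 at E14, against 12.01 at E13 and 11.48 at E15. The part of neocortical tissue in the E14 and E17 readings of the members was not tested. These contrasts and the neocortical list were chosen after the values were seen and rest on 1 array each. Without both arrays the slope of Lmo3 was 0.67 ± 0.087 (adjusted p = 0.00106) and that of Lmo1 -0.20 ± 0.061 (adjusted p = 0.0318).

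Ebf2, a factor of early-born cortical and olfactory neurons, had the steepest fall of the 9 genes. It read 8.81 at E11 and 8.66 at E12, then 7.11 at E13, and 5.85 at E14, 5.94 at E15, 5.87 at E16, 5.62 at E17, 5.65 at E18 and 5.41 at P0. The first 3 ages lay above all later ones, and the gaps between E12 and E13 and between E13 and E15 were beyond the spread of a difference (0.51). The slope was -0.43 ± 0.076 log2 units per day (adjusted p = 0.00129), lower than that of 99.1% of all genes tested, and the level at P0 was 10.5-fold under that at E11. From E13 to P0 alone the slope was -0.21 ± 0.061 (adjusted p = 0.0363). A second probe set read 6.19 at E11, 6.45 at E12 and 4.49 at E13 and at most 3.66 later. It passed the filter through E11 and E12 alone, which favoured a fall in advance. Its slope was -0.42 ± 0.078, but it rested on values under 5. With these set to 5 its call ended (adjusted p = 0.117). The third was under 5 throughout, with 4.71 at E11, 4.64 at E12 and at most 2.86 afterwards.

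The fall of the brightest Ebf2 probe set was curved in the main fit. A fit with age squared had a positive squared term (0.085 ± 0.021, adjusted p = 0.0386), and the fitted curve was lowest at day 17.5. This met the rule for a dip, a class that held 1.26% of all genes tested. The measured levels were lowest at P0 (5.41), after 5.62 at E17 and 5.65 at E18, so that no recovery was seen. The squared term of the second probe set did not pass (0.065, adjusted p = 0.227 over all probe sets tested). The dip call was borderline: it ended in 8 of the 9 fits that left out 1 array (adjusted p up to 0.100). It also ended in 7 of 12 other alternatives, in 6 of these through the adjusted p and with P0 at day 20 through the turning point. A squared term of either sign and any turning point passed for 6.86% of all genes tested. No other member had a peak or dip by this rule, and peaks made up 4.96% of all genes tested.

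Ebf1, a factor of olfactory neurons, striatal neurons, mural cells and B cells, fell after a high point at E12. The brightest probe set read 8.14 at E11, 9.32 at E12, 8.84 at E13, 8.03 at E14, 8.29 at E15, 7.58 at E16, 7.43 at E17, 7.17 at E18 and 6.94 at P0. E12 and E13 were the highest ages and the 4 last ages the lowest, in the order of age. The slope was -0.24 ± 0.050 log2 units per day (adjusted p = 0.00291), and the level at P0 was 2.30-fold under that at E11. All 4 probe sets that were tested fell, with slopes between -0.32 and -0.21, and all 4 read higher at E12 than at E11. The fifth was at most 2.05 on every array and did not pass the filter. The call was kept in all 22 alternatives (adjusted p between 0.000204 and 0.0181).

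Ebf3, the remaining Ebf gene tested, had the smallest range of the 9 genes, 0.77 log2 units. It read 8.40 at E11, 8.25 at E12, 8.68 at E13, 8.76 at E14, 8.63 at E15, 8.42 at E16, 7.99 at E17, 8.15 at E18 and 8.11 at P0. The 3 last ages were the lowest, and no gap in the order of levels exceeded the spread of a difference (0.30). The slope was -0.053 ± 0.031 log2 units per day (adjusted p = 0.189), but from E13 to P0 alone it was -0.13 ± 0.033 (adjusted p = 0.0221). The probe sets differed in their call: a second one fell, with a slope of -0.11 ± 0.033 (adjusted p = 0.0242 over all 21724 probe sets tested, of which 23.7% fell). It read 7.75 at E12, its highest, and 6.74 at E18, its lowest. The mean of both probe sets passed (-0.080 ± 0.028, adjusted p = 0.0371). The third was above 5 at E17 alone, with 5.06.

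The Ebf genes changed unequally. Ebf3 over Ebf2 had a ratio slope of 0.37 ± 0.12 per day (interval 0.099 to 0.65) and Ebf3 over Ebf1 one of 0.19 ± 0.062 (interval 0.044 to 0.34). For Ebf1 over Ebf2 the slope was 0.18 ± 0.11 and its interval (-0.067 to 0.43) included 0. The interval of Ebf3 over Ebf2 included 0 from E13 to P0 alone (0.080 ± 0.081) and without the E11 array (0.29 ± 0.14). That of Ebf3 over Ebf1 included 0 without the P0 array (0.19 ± 0.080).

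**Figure D4:**
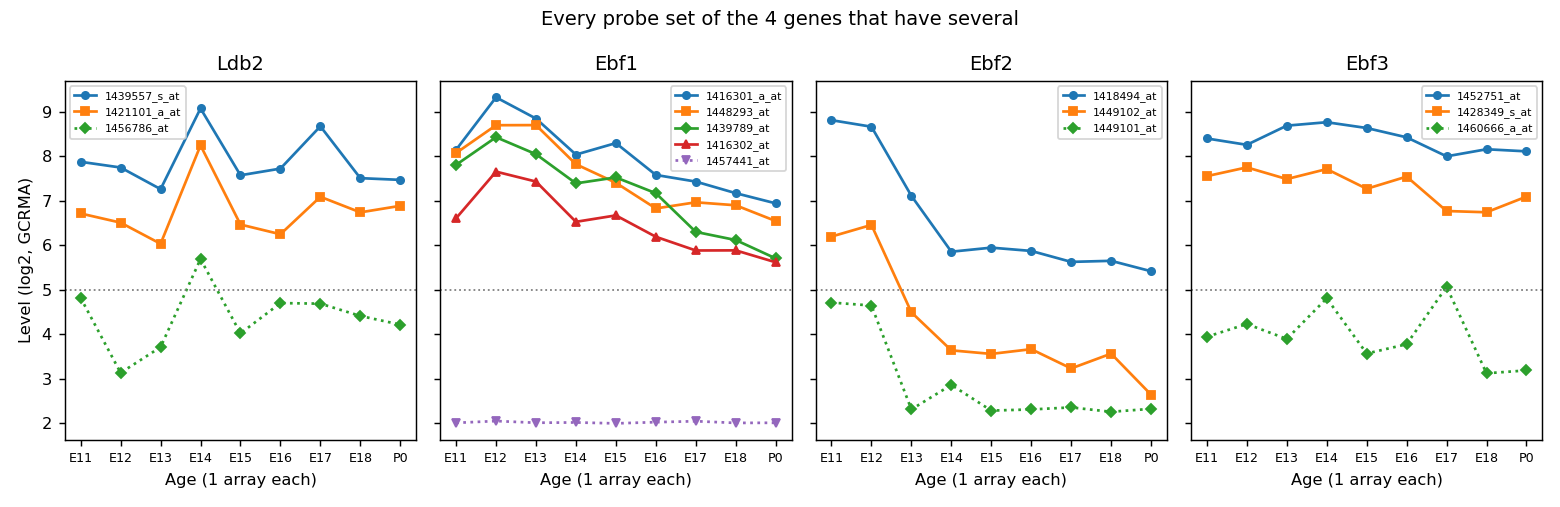
Levels (log2, y axis) of every probe set of Ldb2, Ebf1, Ebf2 and Ebf3 by age (x axis, 1 array per point); dotted curves are probe sets that did not pass the filter, and the grey dotted line is its level of 5. The 3 Ldb2 probe sets are highest at E14, the 4 tested Ebf1 probe sets fall after E13, and the Ebf2 probe sets drop between E12 and E14.

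The arrays on which Ebf1 and Ebf2 fell were also read for markers of cells known to express Ebf genes. Omp, Cnga2 and Cnga4, which define mature olfactory sensory neurons, read at most 2.41 on any array. The 4 tested genes of the olfactory sensory neuron list, Adcy3, Gap43, Stmn2 and Chga, all rose, with slopes between 0.16 and 0.28. All 4 are also expressed in other neurons. Of 6 tested genes of pericytes and mural cells all 6 rose, and their median was 8.54 at P0, against 5.78 at E11. Meningeal and mesenchymal genes rose in 11 of 13 cases and fell in 0, with a median of 9.24 at P0, against 6.95 at E11. Among genes known to carry Ebf sites in olfactory neurons, Gnal, a G protein subunit (0.67 ± 0.10, adjusted p = 0.000551), and Adcy3, an adenylyl cyclase (0.28 ± 0.049, adjusted p = 0.00118), rose. Gng13, another G protein subunit, rose too (0.50 ± 0.090, adjusted p = 0.00143), but reached 5 only at E18 (6.30) and P0 (6.25). It passed the filter through these late ages alone, which favoured a rise in advance. Stom did not pass (0.25, adjusted p = 0.0773), and Omp, Cnga2 and Cnga4, also of this list, did not pass the filter. The part of these cell types in the Ebf levels was not tested. The zinc finger proteins that bind Ebf both fell: Zfp521 had a slope of -0.16 ± 0.028 (adjusted p = 0.00122) and Zfp423 one of -0.15 ± 0.058 (adjusted p = 0.0497). Ebf4, the remaining gene of the family, did not reach 5 on any array and lay between 4.07 and 4.67.

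The LIM homeobox factors, which share Ldb with the LIM-only proteins, fell where they passed the filter. Of 12 listed, 4 passed it, and these 4 fell, as did 21.9% of all genes tested. Isl1 and Lhx1 were at 5 or more only at early ages, so that the filter favoured a fall for them in advance. Isl1, a factor of striatal and other early neurons, had a slope of -0.88 ± 0.14 (adjusted p = 0.000732), with 2.34 at P0, against 10.14 at E11. Lhx9, a factor of early dorsal forebrain and thalamic neurons, fell by a slope of -0.46 ± 0.038 (adjusted p = 1.54e-05) and was 6.29 at P0, against 9.43 at E11. Lhx2, a selector factor of cortical progenitors, had a slope of -0.38 ± 0.050 (adjusted p = 0.000226) and levels of 9.47 at P0, against 12.22 at E11. Lhx1, a factor of Cajal-Retzius and mitral cells, reached 5 on 2 arrays only, E11 (5.20) and E13 (5.32). Its slope was -0.20 ± 0.070 (adjusted p = 0.0355). Lhx5 and Lhx8 were above 5 at E11 alone (5.03 and 5.39), and Lhx3, Lhx4, Lhx6, Isl2, Lmx1a and Lmx1b on no array.

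**Figure D5:**
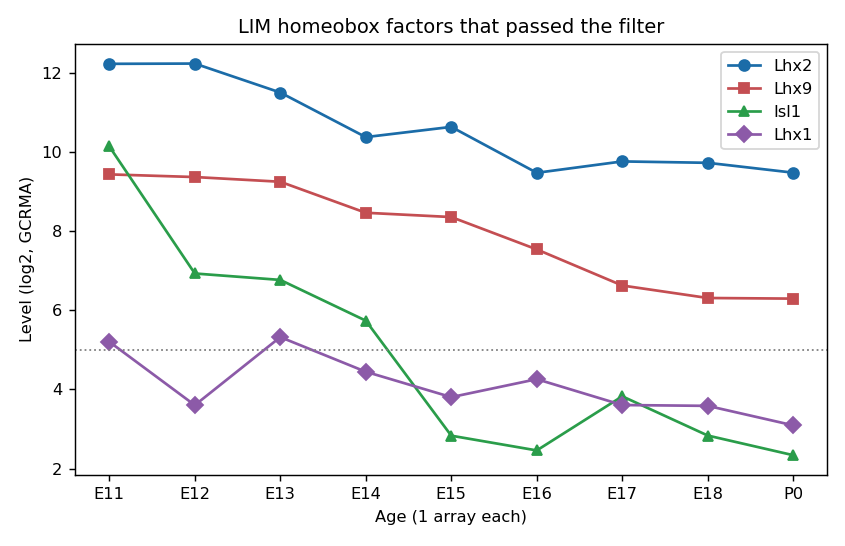
Levels (log2, y axis) of the 4 LIM homeobox factors that passed the filter, by age (x axis, 1 array per point), with the filter level of 5 dotted. Lhx9 falls through the course, and Isl1 is under the filter level from E15 on. Lhx2 falls between E12 and E16, with E15 above E14, and reads between 9.47 and 9.76 from E16 on.

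Other partners of the complexes moved in both directions. Among the proteins that stabilise Ldb, Ssbp3 fell (-0.19 ± 0.026, adjusted p = 0.000310), Ssbp2 fell (-0.051 ± 0.018, adjusted p = 0.0360), and Ssbp4 (0.040, adjusted p = 0.409) and Rlim, the ligase that marks Ldb for breakdown (-0.021, adjusted p = 0.409), did not pass. Of 13 blood and vessel factors that join Lmo2 and Ldb1, 5 passed the filter, 0 rose, 3 fell and 2 did not pass the test. Those that fell were the E protein Tcf3 (-0.23 ± 0.036), Cbfa2t3 (-0.22 ± 0.055) and Cbfa2t2 (-0.089 ± 0.021), and Tcf12, another E protein, did not pass (-0.041, adjusted p = 0.0584). Gata2, named after its values were seen, was above 5 on all 9 arrays (5.28 to 5.62) and did not pass (0.019, adjusted p = 0.599). Tal1, named after its values were seen, was above 5 at E11 alone (5.61), and Lyl1, Gata1 and Gata3 were above it on no array. Among other partners of Lmo4 and Lmo1, the scaffold protein Grip1 rose (0.24 ± 0.032), the basic helix-loop-helix factors Nhlh1 (-0.64 ± 0.073) and Nhlh2 (-0.43 ± 0.040) fell, and Deaf1 (0.064, adjusted p = 0.182) and Brca1 did not pass. Nhlh1 was at 5 or more from E11 to E14 alone, so that the filter favoured a fall for it in advance.

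Lmo3 and Lmo4 rose on arrays where genes of differentiated bulb neurons rose too. Of 9 tested genes of mitral and tufted cells 5 rose and 2 fell. Their median was 6.39 at E11, 11.62 at E13, 11.88 at E16 and 10.29 at P0, so that it did not rise steadily. A median can be the reading of a different gene at each age. Among 11 genes of GABAergic interneurons 9 rose and 0 fell, with a median of 10.12 at P0, against 9.10 at E11 and 7.74 at E13. Lmo1, Ldb1, Ebf1 and Ebf2 fell on arrays where 9 of 11 genes of neural progenitors fell and 2 rose (median 10.56 at P0, against 11.53 at E11). Of 10 genes of newborn neurons 5 fell and 2 rose (median 9.84 at P0, against 10.62 at E11 and 11.32 at E14). Uncx of the mitral and tufted cells, Nr2e1 of the progenitors and Nhlh1 of the newborn neurons were at 5 or more only at early ages. The filter favoured a fall for them in advance. It favoured a rise for Slc17a7 of the mitral and tufted cells, which was at 5 or more only from E15 on. The part of these cell types in the levels of the members was not tested.

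Genes with the closest course to each member were found among the genes tested by the root mean square difference of their profiles over the 9 arrays, each centred on its own mean. Probe sets of the same member lay between 0.12 and 0.38 log2 units apart by this measure. For Lmo3 the closest were Chl1, a neuronal adhesion molecule (0.41), Grm5, a metabotropic glutamate receptor (0.43), and the protocadherin Pcdh20 (0.46). Chl1 read 11.57 at E14 and 10.31 at E15, and 11.96 at E17 and 10.73 at E18. For Lmo4 they were Plcb4, a phospholipase C (0.090), Dagla, a lipase that makes an endocannabinoid (0.098), and Kptn (0.099). For Lmo1 they were Lpl, lipoprotein lipase (0.29), Tox3 (0.30) and Abcd2, a peroxisomal transporter (0.30). For Lmo2 they were Ifi30, a lysosomal reductase of antigen-presenting cells (0.14), Focad (0.15) and Zfr (0.16).

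For Ldb1 the closest were St8sia2, which makes polysialic acid (0.16), the corepressor Tle3 (0.16) and the homeobox factor Meis3 (0.16). For Ldb2 they were Septin10 (0.31), Rbm24 (0.33) and Dpy19l1 (0.34), and Septin10 read 8.07 at E14 and 7.80 at E17, its 2 highest values. For Ebf1 they were Emx1, a homeobox factor of dorsal forebrain progenitors (0.20), Tjap1 (0.28) and the netrin receptor Dcc (0.29). Emx1 read 9.06 at E12, its highest level, and 6.53 at P0, its lowest. For Ebf2 they were the Notch ligand Dll3 (0.27), Shroom3 (0.28) and Mcoln3 (0.28). Ebf3, with its small range, was left out of this comparison. Between members the closest pairs were Lmo2 with Lmo4 (0.31) and Ldb1 with Ebf1 (0.34).

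The genes lie on different chromosomes or far apart. On GRCm38.p6, Lmo1 spans chr7:109138565-109175207, Lmo2 chr2:103957903-103981878, Lmo3 chr6:138362918-138582206 and Lmo4 chr3:144188530-144205255. Ldb1 spans chr19:46031525-46048145 and Ldb2 chr5:44435955-44799759. Ebf1 lies at chr11:44618100-45008096, Ebf2 at chr14:67233292-67430952 and Ebf3 at chr7:137193671-137322805. Of the genes that rose, Lmo3 spans 219 kb and Lmo4 16.7 kb, and of those that fell, Ebf2 spans 198 kb and Ldb1 16.6 kb.

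Promoter sequences from RefSeq (GRCm38.p6, windows of 300 bases around an annotated start) were matched for 6 of the 9 genes with 12 starts. The windows of Lmo3 and Lmo1 are shown as the pair of paralogs whose ratio moved most, and those of Ldb1 and Ebf3 as the 2 members that hold the Ebf core motif. Capitals mark the E-box CANNTG, the core TAATTA bound by LIM homeobox factors and the Ebf core CCCNNGGG, which read the same on both strands and do not overlap here. The windows are chr6:138581919-138582218, chr7:109175158-109175457, chr19:46039572-46039871 and chr7:137314396-137314695, all on the minus strand, and run 5′ to 3′.
Lmo3: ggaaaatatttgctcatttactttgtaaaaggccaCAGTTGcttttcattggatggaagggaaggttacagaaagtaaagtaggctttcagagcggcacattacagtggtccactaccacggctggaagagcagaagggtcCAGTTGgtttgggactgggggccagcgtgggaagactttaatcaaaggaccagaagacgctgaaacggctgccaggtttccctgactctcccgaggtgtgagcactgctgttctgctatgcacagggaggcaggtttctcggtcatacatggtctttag
Lmo1: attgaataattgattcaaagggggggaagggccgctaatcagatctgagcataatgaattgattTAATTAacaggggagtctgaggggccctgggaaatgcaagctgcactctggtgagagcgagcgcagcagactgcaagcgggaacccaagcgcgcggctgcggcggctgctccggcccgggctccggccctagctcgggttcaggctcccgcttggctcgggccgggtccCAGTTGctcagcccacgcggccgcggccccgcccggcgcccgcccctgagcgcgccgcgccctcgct
Ldb1: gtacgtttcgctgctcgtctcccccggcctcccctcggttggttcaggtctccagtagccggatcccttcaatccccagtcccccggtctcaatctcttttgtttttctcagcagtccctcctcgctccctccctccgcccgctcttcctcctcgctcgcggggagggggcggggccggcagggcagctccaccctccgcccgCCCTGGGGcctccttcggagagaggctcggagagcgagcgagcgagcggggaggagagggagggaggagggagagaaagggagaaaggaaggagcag
Ebf3: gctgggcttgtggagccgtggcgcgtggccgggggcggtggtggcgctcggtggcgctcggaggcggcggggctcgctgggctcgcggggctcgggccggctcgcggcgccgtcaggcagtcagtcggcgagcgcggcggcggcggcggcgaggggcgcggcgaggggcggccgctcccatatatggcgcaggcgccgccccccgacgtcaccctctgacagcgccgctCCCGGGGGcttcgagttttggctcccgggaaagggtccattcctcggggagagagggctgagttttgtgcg

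The windows differ in composition and in motifs. The Lmo3 window holds 2 E-boxes and 50% G and C, and the Lmo1 window 1 E-box, 1 TAATTA and 66.3% G and C, where the median of all promoters was 52.7%. An E-box was found in 7 of the 12 member windows and in 72.3% of all 32851 windows. The TAATTA core was found in 2 of the 12, overlapping windows of Lmo1 that share the match, and in 5.29% of all windows. The Ebf core was found in 2 of the 12 and in 13.7% of all windows. These matches are descriptions of letters, and no binding was measured.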

How the data were processed

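Bulb RNA of 1 CD1 mouse per age went through 2 rounds of amplification and onto 1 array, per the labels. The authors deposited a log2 level per probe set, made with GCRMA per the submitters' processing notes. The GCRMA version is not given in the sources used here. That the scale is log2 was read off the values, which no label states. Array medians lay between 4.08 and 4.23, and nothing was rescaled. The number of arrays limits the precision. Xist was read on 4 of the 9 arrays (E11, E12, E15 and P0), so that sex was spread unevenly over the ages.

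Probe sets at log2 5 or more on at least 2 arrays were kept, controls left out (21724), and for each gene with a single symbol the probe set with the highest mean was used (10864 genes). Each was fitted against age with limma 3.58.1 in R 4.3.3 (variance trend, two-sided, Benjamini-Hochberg over all genes, threshold 0.05), with P0 as day 19. The p-values set a slope against the scatter of the 9 arrays about the fitted line. That scatter mixes differences between animals and arrays with any curve of the course. A peak or dip needed an adjusted p under 0.05 for age squared and a turning point from day 12 to day 18. Folds set values under 5 to 5. Paralog ratios were fitted by least squares, and profiles of genes other than clones were compared for members with a range above 1. All members, the LIM homeobox factors and up to 4 genes of each other list (for partners, those with the largest slopes) were given values. Members and lists were chosen with earlier results of these data known. The fits were tested on simulated data. Alternatives changed the normalization, filter, probe set, day of P0, sex, variance model, test or arrays used, and those without E14 and E17 were added after the data were seen.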

Additional observations from a re-analysis of the deposited data

How the results depend on the processing

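With 1 array per age, every trend rests on 9 points and the error includes differences between animals, dissection and hybridisation. The calls of Lmo3, Ldb1, Ebf1 and Ebf2 were kept in all 22 alternatives each, and Ldb2 passed in none of its 22. The call of Lmo1 changed in 4 of 22, that of Ebf3 in 2, and those of Lmo2 and Lmo4 in 1 each. From E13 to P0 alone, 1 member rose and 1529 of all genes rose and 1193 fell. The single dip (Ebf2) was not called, which left 0 members with a dip, without a filter, with values under 5 set to 5, with the mean of a gene's probe sets, with P0 at day 20, with embryo sex in the fit, from E13 to P0 alone and without the E14 and E17 arrays. Leaving out 1 array at a time left between 0 and 1. No slope of a member that had passed turned its direction in any alternative. The causes of these changes were not tested. The interval of a paralog ratio came to include 0 in 11 of 170 refits. No paired analysis was possible because each age had 1 array and no label pairs the animals.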

Other observations

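Lmo3 and Ldb2 are known from neurons of the cerebral cortex as well as from the bulb, and factors of neocortical neurons were therefore read on the same arrays. The list (Neurod2, Neurod6, Bcl11b, Fezf2, Cux2, Rorb, Sox5 and Tle4) was chosen after the values of the members were seen. The E14 level exceeded the mean of E13 and E15 by a median of 0.75 log2 units over these 8 genes, with 1.07 for Neurod2, 0.996 for Sox5, 0.90 for Rorb, 0.81 for Neurod6 and 0.69 for Cux2. It was smaller for Bcl11b (0.22), Fezf2 (0.16) and Tle4 (-0.04). At E17 the median difference from the mean of E16 and E18 was 0.36, between 0.78 for Rorb and -0.10 for Tle4, with 0.14 for Sox5 and -0.01 for Fezf2. The lists of bulb and other cell types had medians between -0.49 (olfactory ensheathing cells) and 0.40 (red cells) at E14, with -0.36 for mitral and tufted cells and -0.12 for GABAergic interneurons. Emx1 and Lhx2, factors of forebrain progenitors outside the neocortical list, read lower at E14 than at E13 and E15.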
